A study of Rattus norvegicus with 9 samples.

Results

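The genes described here are 52 rat genes that encode the working parts of the lysosome, taken as a fixed list of gene symbols. They comprised 26 hydrolases, 3 cofactors of the lysosomal lumen, 7 lysosomal membrane proteins, 14 subunits or accessory proteins of the vacuolar proton pump (V-ATPase) and 2 transcriptional regulators. All 52 were found among the 36856 genes of the deposited tables, and 49 were among the 14706 genes tested for differences. Ctsh, Ctsk and Ctsz, which encode cathepsins H, K and Z, had 12, 47 and 9 estimated reads over all 9 libraries and were not tested.

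RNA of H9c2(2-1), a wild-type myoblast line derived from embryonic BD1X rat heart, was sequenced in 3 groups of 3 libraries. ESW cells received energized structured water at a dilution of 0.01 in the medium over 72 h, and fresh diluted medium was given at intervals of 24 h. CW cells received control water at the same dilution, for the same time and with the same changes of medium, and Control cells received no treatment and were kept in normal growth medium; the labels leave unclear whether their medium was renewed at the same intervals. All results rest on 1 cell line, and no label tells whether the libraries within a group are separate cultures; the p-values therefore reflect the spread from library to library, possibly of technical origin.

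Lysosomes are acidic organelles in which hydrolases break down proteins, glycans, sulfated sugars and lipids that arrive by endocytosis and autophagy. Their acidity is set by the V-ATPase, whose membrane sector V0 carries protons and whose cytosolic sector V1 hydrolyses ATP. Many lysosomal genes are known to be regulated together by the transcription factors TFEB and TFE3, which bind a palindromic DNA motif called the CLEAR element; in muscle, loss of the glycogen-degrading enzyme encoded by Gaa causes Pompe disease.

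Each library held between 26748673 and 48574618 estimated reads assigned to transcripts. On the first principal component of all tested genes, Control replicate 1 lay at -10.9, inside the range of the ESW libraries (-28.7 to -8.79), while the other Control libraries lay at 7.08 and 12.3 and the CW libraries between 15.4 and 16.5. The labels name no batch. The myoblast marker Myod1 averaged 9.25 TPM over the 9 libraries and Myf5 was at 0.00888 TPM. Of 10 macrophage markers, 9 were under 1 TPM in every library, among them Aif1, Fcgr1a, C1qa and C1qb at 0, and all 6 endothelial markers were under 1 TPM in every library. The remaining macrophage marker, Cd14, averaged 24.2 TPM. Of 5 epithelial markers 4 and of 7 cardiomyocyte markers 5 were under 1 TPM in every library. The exceptions were Krt8, Tnni3 and Tnnt2, at means of 51.1, 2.01 and 66.6 TPM.

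Where members passed the test between ESW cells and another group, they were higher in ESW cells than in that group, by small amounts. Calls against Control fell on 12 of 23 tested hydrolases, 2 of 3 cofactors, 2 of 7 membrane proteins, 4 of 14 V-ATPase genes and 0 of 2 regulators. Against Control, 20 of the 49 tested members rose in ESW cells and 0 fell at an adjusted p below 0.05 (edgeR's quasi-likelihood test, Benjamini-Hochberg adjustment over all tested genes), compared with 4.76% of all tested genes called higher and 3.28% called lower. Against CW, 15 of 49 rose in ESW cells and 0 fell, beside 4.15% of all tested genes called higher and 3.99% called lower. The changes were between 1.1-fold and 1.32-fold for the 20 members called against Control and between 1.08-fold and 1.23-fold for the 15 called against CW. These comparisons share the ESW libraries and are therefore not independent of each other. In bulk RNA, a change in the make-up of the cells and a change in RNA per cell cannot be told apart.

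The median log2 fold change of the 49 members was 0.12 for ESW against Control, where the median of all tested genes was -0.01. For ESW against CW the members' median was 0.11 and that of all tested genes was -0.00. At an unadjusted p below 0.05, 0 members were lower in ESW than in Control cells. Atp6v1c1 was the 1 member lower than in CW cells. At that p, 28 members were higher against Control and 25 against CW. In either direction, 3357 of all 14706 tested genes were below it against Control and 3514 against CW. DESeq2 and limma-voom called 0 members lower in either comparison. All 3 ESW libraries lay above all 3 Control libraries for 29 of 49 members, compared with 13.3% of all tested genes, and below them for 1 member, Ctsl, compared with 12.4% of all tested genes. They lay above all 3 CW libraries for 27 members, beside 14.9% of all tested genes, and below them for 2, Atp6v1d and Atp6v1e1, beside 13.4%. For 23 members the ESW libraries lay above all 6 other libraries, and for 0 members below them. The share of all tested genes that lay apart from all 6 others was not computed.

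The ESW libraries did not contribute equally. The highest of the 9 CPM values was in ESW replicate 3 for 17 members, in ESW replicate 1 for 13 and in ESW replicate 2 for 7. The lowest was most often in Control replicate 3, for 17 members. How often each library is highest or lowest over all tested genes was not counted. Without ESW replicate 3 the counts of members called higher were 11 against Control and 8 against CW, and without CW replicate 2 the count against CW was 9. Without Control replicate 1, which lay among the ESW libraries on the first principal component, 22 members were called higher against Control. The shares of all tested genes called with a library left out are not given here, so these counts cannot be set against them. With gene lengths taken into the fit as average transcript length offsets, 15 members were called higher against Control, where 1.75% of all tested genes were, and 12 against CW, where 2.67% were. On log2(TPM + 1) tested with limma, 7 members were called higher against Control, where 0.36% of all tested genes were, and 0 against CW. The share of all tested genes called against CW in that fit is not given here, so the 0 cannot be set against it.

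**Figure D1:**
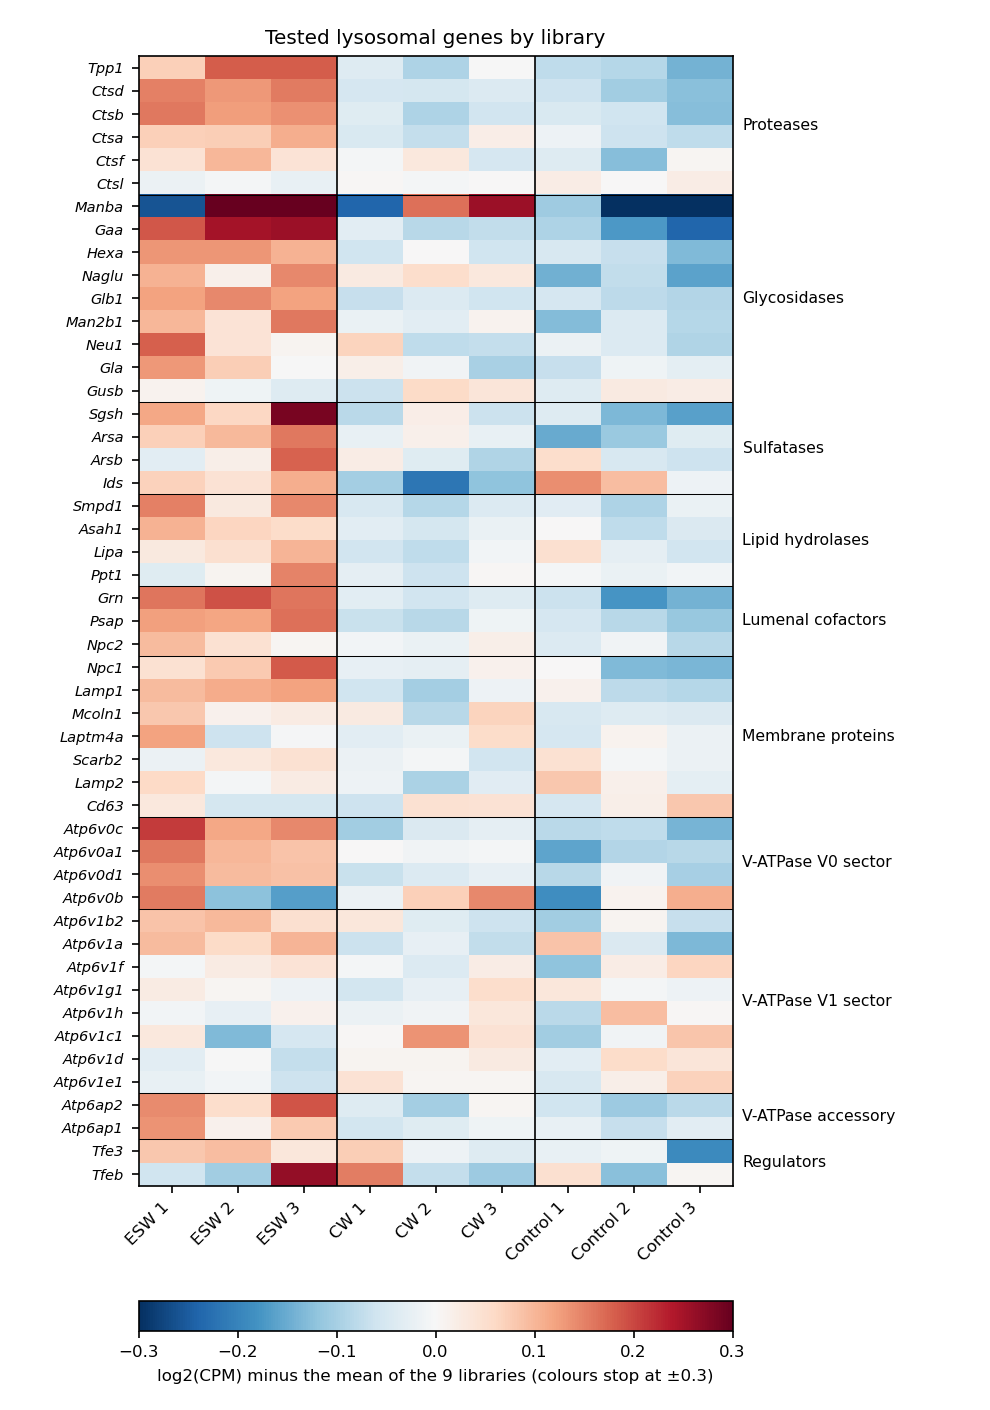
Each row is 1 of the 49 tested lysosomal genes and each column 1 library; colour gives log2 of TMM-scaled CPM minus the mean of the 9 libraries, with colours stopping at ±0.3. The ESW columns hold the highest value of 37 of the 49 genes, a count that was not made over all tested genes. Of the 8 V1 genes, Atp6v1b2 has all ESW libraries above the other 6.

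Over the whole list, summed abundance was 14474 ± 77.9 TPM in ESW libraries, 13781 ± 60.7 TPM in CW libraries and 13576 ± 147 TPM in Control libraries (SD, n = 3 each), or between 1.35% and 1.46% of all TPM. Among members, levels per length ran over a wide range: 26 members averaged 100 TPM or more, 20 between 10 and 100 TPM, 2 between 1 and 10 TPM (Tfeb and Sgsh), and 4 under 1 TPM (Manba, Ctsh, Ctsk and Ctsz). The tetraspanin gene Cd63 was first at 3035 TPM, before Laptm4a at 1100 TPM and Ctsb at 1043 TPM. The lowest Laptm4a library (1050 TPM) lay within the range of the Ctsb libraries, so the order of that pair is not set beyond their spread.

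**Figure D2:**
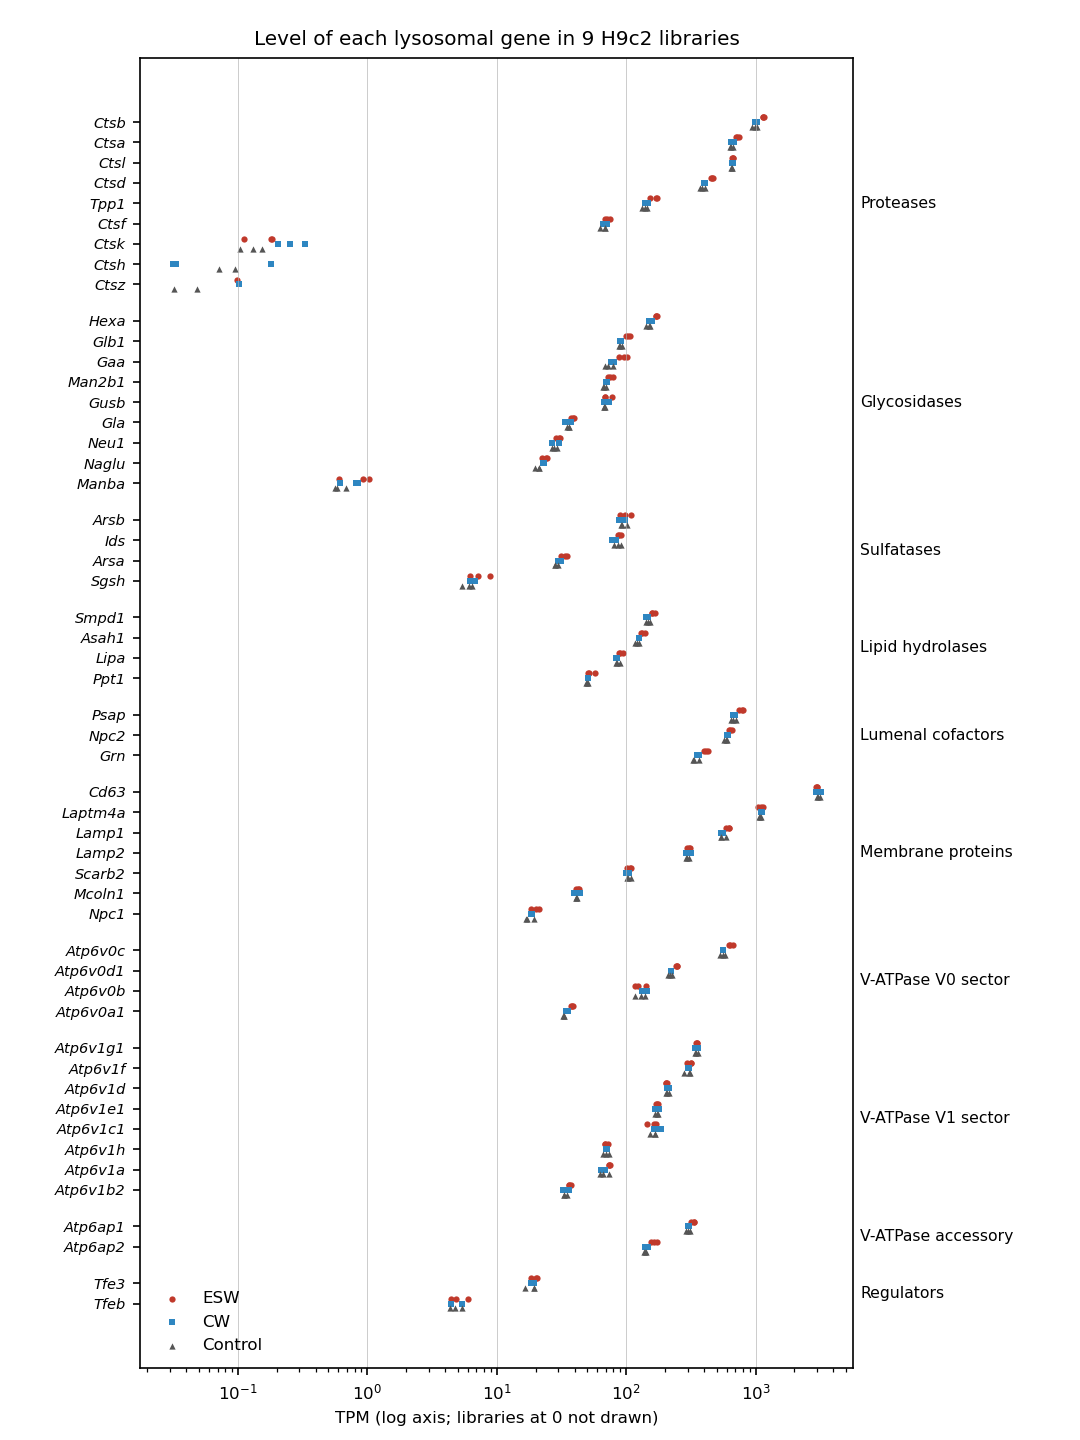
Each point is the TPM (log axis) of 1 lysosomal gene in 1 of 9 libraries, with ESW as circles, CW as squares and Control as triangles, and genes ordered by level within each role; libraries at 0 are not drawn. Levels ran from under 1 TPM for Manba, Ctsh, Ctsk and Ctsz to 3035 TPM for Cd63, and the distance between groups was small beside the distance between genes.

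RefSeq promoter windows (build GRCr8, 250 bases before to 50 bases after the annotated start) were on hand for 42 of the 52 members, and were searched for the CLEAR core and the E-box inside it. The E-box, CACGTG, was found in 9 of 42 member windows (21.4%) and in 2148 of 33469 windows in all (6.42%). The CLEAR core, TCACGTGA, which contains an E-box, was found in 4 of 42 member windows (9.52%) and in 260 of all windows (0.777%). Both motifs read the same on either strand, and a match here is a match of letters only. The 4 members with a core were Ctsd, Lamp1, Mcoln1 and Atp6v0d1, and E-boxes without a core were found in Ctsf, Cd63, Glb1, Gaa and Sgsh. The 4 windows with a core are printed here from 250 bases before to 20 bases after the start, together with that of Gaa, the member with the smallest p, with each E-box in capitals and each CLEAR core in capitals including its outer T and A.
Ctsd, GRCr8 chr1:206968802-206969071, minus strand: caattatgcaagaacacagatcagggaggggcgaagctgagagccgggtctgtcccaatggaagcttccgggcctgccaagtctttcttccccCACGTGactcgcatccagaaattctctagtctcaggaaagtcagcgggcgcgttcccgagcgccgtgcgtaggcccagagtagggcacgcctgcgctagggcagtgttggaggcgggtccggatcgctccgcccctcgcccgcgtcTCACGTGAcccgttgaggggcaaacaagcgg
Lamp1, GRCr8 chr16:83075044-83075313, minus strand: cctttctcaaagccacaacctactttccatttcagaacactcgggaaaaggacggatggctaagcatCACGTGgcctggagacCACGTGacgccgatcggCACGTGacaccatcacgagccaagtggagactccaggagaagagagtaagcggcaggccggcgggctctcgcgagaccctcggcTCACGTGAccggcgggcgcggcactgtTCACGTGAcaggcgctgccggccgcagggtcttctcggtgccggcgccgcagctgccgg
Mcoln1, GRCr8 chr12:6358008-6358277, plus strand: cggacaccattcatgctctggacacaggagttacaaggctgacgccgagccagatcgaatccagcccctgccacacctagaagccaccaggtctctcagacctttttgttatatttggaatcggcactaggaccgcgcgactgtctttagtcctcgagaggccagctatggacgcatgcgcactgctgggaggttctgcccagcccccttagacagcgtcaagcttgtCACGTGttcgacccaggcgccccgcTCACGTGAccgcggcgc
Atp6v0d1, GRCr8 chr19:50357229-50357498, minus strand: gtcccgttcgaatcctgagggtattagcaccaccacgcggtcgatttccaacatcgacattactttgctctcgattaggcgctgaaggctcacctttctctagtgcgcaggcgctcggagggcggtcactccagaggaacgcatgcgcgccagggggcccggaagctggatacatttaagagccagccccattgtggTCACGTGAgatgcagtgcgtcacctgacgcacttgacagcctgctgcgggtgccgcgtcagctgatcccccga
Gaa, GRCr8 chr10:105028105-105028374, plus strand: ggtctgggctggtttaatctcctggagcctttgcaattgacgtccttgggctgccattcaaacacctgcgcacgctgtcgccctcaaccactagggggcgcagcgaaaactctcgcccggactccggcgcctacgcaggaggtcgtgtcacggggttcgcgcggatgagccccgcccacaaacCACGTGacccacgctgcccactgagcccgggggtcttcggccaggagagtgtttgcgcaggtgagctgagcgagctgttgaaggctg
The core began 11 bases before the start of Ctsd and 53 bases before that of Atp6v0d1. In Lamp1 there were 2 cores, 66 and 39 bases before the start, among 5 E-boxes. In Mcoln1 the core began 3 bases after the start, and the E-box of Gaa began 67 bases before it. Of the 9 members with an E-box, Ctsd, Lamp1, Atp6v0d1, Glb1, Gaa and Sgsh were called higher in ESW cells than in Control cells, and Mcoln1, Ctsf and Cd63 were not, where 20 of all 49 tested members were called.

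Among the proteases, 4 of the 6 tested members rose in ESW cells against Control and the same 4, Ctsa, Ctsb, Ctsd and Tpp1, rose against CW. The summed level of the 9 protease genes was 3239 ± 37.8 TPM in ESW libraries, 2947 ± 31.9 TPM in CW libraries and 2880 ± 85.3 TPM in Control libraries. Ctsb, which encodes the cysteine protease cathepsin B, had 1242, 1214 and 1224 CPM in the ESW libraries, 1086, 1044 and 1070 CPM in the CW libraries, and 1078, 1069 and 1019 CPM in the Control libraries (CPM, counts of a gene relative to the library's total, scaled by the trimmed mean of M-values, TMM). The ESW libraries were the 3 highest, and the CW and Control libraries overlapped. Ctsb rose by 0.22 on the log2 scale against Control (SE 0.03, adjusted p = 0.00101) and by 0.20 against CW (SE 0.03, adjusted p = 0.00252).

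Ctsd, which encodes the aspartic protease cathepsin D and whose promoter window carries a CLEAR core, had 523, 516 and 525 CPM in the ESW libraries, 455, 454 and 458 CPM in the CW libraries, and 451, 438 and 432 CPM in the Control libraries. All ESW libraries lay above the other 6, and each group was tight. It rose by 0.24 on the log2 scale against Control (SE 0.03, adjusted p = 0.000439) and by 0.19 against CW (SE 0.03, adjusted p = 0.00283). Tpp1, which encodes tripeptidyl peptidase 1, an enzyme lost in a form of neuronal ceroid lipofuscinosis, had 204, 220 and 220 CPM in the ESW libraries, 189, 182 and 194 CPM in the CW libraries, and 184, 183 and 176 CPM in the Control libraries. ESW replicate 1 was the lowest of its group and still above the other groups. The log2 fold change of Tpp1 was 0.24 against Control (adjusted p = 0.00138) and 0.19 against CW (adjusted p = 0.00876); the call against CW was lost without ESW replicate 3 (adjusted p = 0.0656) or without CW replicate 2 (adjusted p = 0.0653).

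Ctsa, the gene of cathepsin A, which also shields the galactosidase and sialidase enzymes, showed the smallest changes among the called proteases, with log2 fold changes of 0.13 against Control (adjusted p = 0.0249) and 0.12 against CW (adjusted p = 0.0498). The cysteine protease genes Ctsl and Ctsf did not pass the test. Ctsl had 499, 503 and 497 CPM in the ESW libraries, 506, 503 and 505 CPM in the CW libraries and 513, 505 and 513 CPM in the Control libraries, a log2 fold change of -0.03 against Control (SE 0.03, adjusted p = 0.644). Its ESW libraries lay just below those of Control and overlapped those of CW. For Ctsf the log2 fold change was 0.11 against Control (SE 0.04, adjusted p = 0.129).

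Among the glycosidases, which cut sugars from glycogen, glycolipids and glycoproteins, 5 of the 9 tested members rose in ESW cells against Control (Gaa, Hexa, Glb1, Man2b1 and Naglu) and 3 rose against CW (Gaa, Hexa and Glb1). Their summed level was 610 ± 17.8 TPM in ESW libraries, 553 ± 11.9 TPM in CW libraries and 534 ± 14.1 TPM in Control libraries. Gaa, which encodes acid alpha-glucosidase, the enzyme that degrades glycogen in lysosomes, had 200, 209 and 210 CPM in the ESW libraries, 172, 166 and 167 CPM in the CW libraries, and 165, 156 and 149 CPM in the Control libraries. The 3 groups did not overlap. Gaa had the smallest p of all members and was 1.32-fold higher in ESW than in Control cells (log2 fold change 0.40, SE 0.04, adjusted p = 3.31e-05) and 1.23-fold higher than in CW cells (log2 fold change 0.30, SE 0.04, adjusted p = 0.000712). The difference of CW from Control was 0.10 (SE 0.04, adjusted p = 0.421).

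Glb1, the gene of the beta-galactosidase that cleaves GM1 ganglioside, had 171, 174 and 171 CPM in the ESW libraries, 150, 153 and 151 CPM in the CW libraries, and 152, 149 and 148 CPM in the Control libraries. The ESW libraries stood clear of the other 6, which overlapped. Glb1 rose by 0.20 against Control (adjusted p = 0.00213) and by 0.18 against CW (adjusted p = 0.00481). Hexa, the alpha subunit of beta-hexosaminidase A, which is mutated in Tay-Sachs disease, had 161, 161 and 158 CPM in the ESW libraries, 141, 147 and 141 CPM in the CW libraries, and 142, 140 and 134 CPM in the Control libraries. Again the ESW libraries were the 3 highest. Hexa rose by 0.21 against Control (adjusted p = 0.00291) and by 0.16 against CW (adjusted p = 0.0139); the call against CW was lost without ESW replicate 2, ESW replicate 3 or CW replicate 3 (adjusted p = 0.0536, 0.0561 and 0.0701).

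Naglu, which encodes a glucosaminidase of heparan sulfate breakdown, had 28.5, 26.8 and 29.3 CPM in the ESW libraries, 27, 27.5 and 27.1 CPM in the CW libraries, and 24.0, 25.2 and 23.7 CPM in the Control libraries. Here the ESW and CW libraries overlapped and both lay above Control. The log2 fold change was 0.21 for ESW against Control (adjusted p = 0.0223), 0.05 for ESW against CW (adjusted p = 0.63) and 0.16 for CW against Control (adjusted p = 0.317). The call against Control was lost without Control replicate 3 (adjusted p = 0.0962), ESW replicate 1 (adjusted p = 0.057) or ESW replicate 3 (adjusted p = 0.132), and with the length offsets (adjusted p = 0.107). Man2b1, a lysosomal alpha-mannosidase, rose by 0.18 against Control (adjusted p = 0.00858), and its log2 fold change against CW was 0.11 (adjusted p = 0.0919). The remaining glycosidase genes Gla, Neu1, Gusb and Manba had log2 fold changes against Control of 0.11, 0.13, -0.02 and 0.47 and did not pass the test. Manba was the least abundant tested member, at 0.744 TPM, and its SE of 0.23 was the largest of all members.

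The sulfatases, which remove sulfate groups from glycosaminoglycans and sulfatides, did not share a pattern. Sgsh and Arsa rose in ESW cells against Control, Ids rose against CW, and the summed level of the 4 genes overlapped between the groups. Arsa, which encodes arylsulfatase A, and Sgsh, which encodes a sulfamidase of heparan sulfate breakdown, had log2 fold changes against Control of 0.21 (SE 0.05, adjusted p = 0.00845) and 0.27 (SE 0.07, adjusted p = 0.0266), and against CW of 0.12 (adjusted p = 0.118) and 0.19 (adjusted p = 0.105). Arsb, the most abundant sulfatase gene at 96 TPM, had 95.3, 98.5 and 110 CPM in the ESW libraries, 98.8, 95.0 and 91.5 CPM in the CW libraries, and 101, 94.2 and 93.2 CPM in the Control libraries. The groups overlapped, and the log2 fold change of 0.08 against Control did not pass the test (SE 0.05, adjusted p = 0.401).

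Ids, which encodes iduronate 2-sulfatase, was the 1 member called between CW and Control. It had 178, 175 and 183 CPM in the ESW libraries, 158, 146 and 156 CPM in the CW libraries, and 187, 181 and 168 CPM in the Control libraries. The CW libraries lay below all others, and the ESW and Control libraries overlapped. The log2 fold change was -0.00 for ESW against Control (SE 0.04, adjusted p = 0.997), 0.22 for ESW against CW (SE 0.04, adjusted p = 0.00591) and -0.22 for CW against Control (SE 0.04, adjusted p = 0.0443). With the length offsets the last 2 values were 0.14 (adjusted p = 0.0601) and -0.12 (adjusted p = 0.628).

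Of the 4 lipid hydrolases, Smpd1, which encodes acid sphingomyelinase, rose in ESW cells against both other groups. It had 225, 207 and 224 CPM in the ESW libraries, 196, 191 and 197 CPM in the CW libraries, and 198, 190 and 200 CPM in the Control libraries. ESW replicate 2 was the nearest to the other groups, which overlapped. Smpd1 rose by 0.15 against Control (adjusted p = 0.0216) and by 0.17 against CW (adjusted p = 0.016). The call against Control was lost with the length offsets (adjusted p = 0.0966) and without Control replicate 2, ESW replicate 1 or ESW replicate 3, and the call against CW without ESW replicate 1, ESW replicate 3, CW replicate 2 or CW replicate 3, with adjusted p between 0.0503 and 0.124. Asah1 (acid ceramidase), Lipa (lysosomal acid lipase) and Ppt1 (palmitoyl-protein thioesterase 1) had log2 fold changes between 0.05 and 0.11 against Control and between 0.07 and 0.11 against CW and did not pass the test; their lowest adjusted p was 0.0713.

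Of the 3 lumenal cofactors, Grn and Psap rose in ESW cells against both other groups and Npc2 did not pass the test in either comparison. Grn, which encodes progranulin, a protein cut into granulins in the lysosome, had 491, 502 and 491 CPM in the ESW libraries, 430, 422 and 428 CPM in the CW libraries, and 420, 389 and 398 CPM in the Control libraries. The 3 groups did not overlap. Grn was 1.23-fold higher than in Control (log2 fold change 0.30, SE 0.04, adjusted p = 0.000156) and 1.16-fold higher than in CW cells (log2 fold change 0.21, SE 0.04, adjusted p = 0.00246), and the difference of CW from Control was 0.09 (adjusted p = 0.441). Psap, the precursor of the saposins that present sphingolipids to their hydrolases, had 1151, 1148 and 1186 CPM in the ESW libraries, 1010, 999 and 1048 CPM in the CW libraries, and 1022, 999 and 978 CPM in the Control libraries. All ESW libraries lay above the other 6. Psap rose by 0.22 against Control (adjusted p = 0.00105) and by 0.19 against CW (adjusted p = 0.00351). Npc2, which hands cholesterol to the membrane protein encoded by Npc1, had log2 fold changes of 0.09 (SE 0.04, adjusted p = 0.127) and 0.05 (SE 0.04, adjusted p = 0.425).

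Together the 29 genes of hydrolases and cofactors summed to 6256, 6387 and 6423 TPM in the ESW libraries, 5843, 5731 and 5740 TPM in the CW libraries, and 5830, 5608 and 5485 TPM in the Control libraries. The ESW libraries lay above the other 6, and 14 of the 26 tested genes were called against Control and 11 against CW. Of 8 markers of the myoblast line, 4 also rose against Control: Col1a1 and Col1a2, which encode the chains of type I collagen, by 0.29 and 0.22 on the log2 scale, Acta2, which encodes smooth muscle actin, by 0.17, and Vim, which encodes vimentin, by 0.11, where 4.76% of all tested genes were called higher. The others went different ways: Des, which encodes desmin, and Tagln, which encodes transgelin, had log2 fold changes of -0.34 and -0.08 with all ESW libraries below those of Control (adjusted p = 0.144 and 0.161), Myod1 was at 0.31 (adjusted p = 0.0581) and Myf5 was not tested. The summed level of the 8 myoblast-line markers was 42900 to 45755 TPM in ESW, 37710 to 40483 TPM in CW and 38625 to 41195 TPM in Control libraries, and its part in the lysosomal result was not tested. Macrophages are rich in lysosomes, and the summed level of their 10 markers was 23.2 to 27.5 TPM in ESW, 22 to 26.5 TPM in CW and 23.1 to 24.6 TPM in Control libraries. Most of that sum was Cd14, at a mean of 24.2 TPM, and without Cd14 the sum was at most 0.161, 0.577 and 0.074 TPM in the same groups. The part of these markers in the lysosomal result was not tested.

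**Figure D3:**
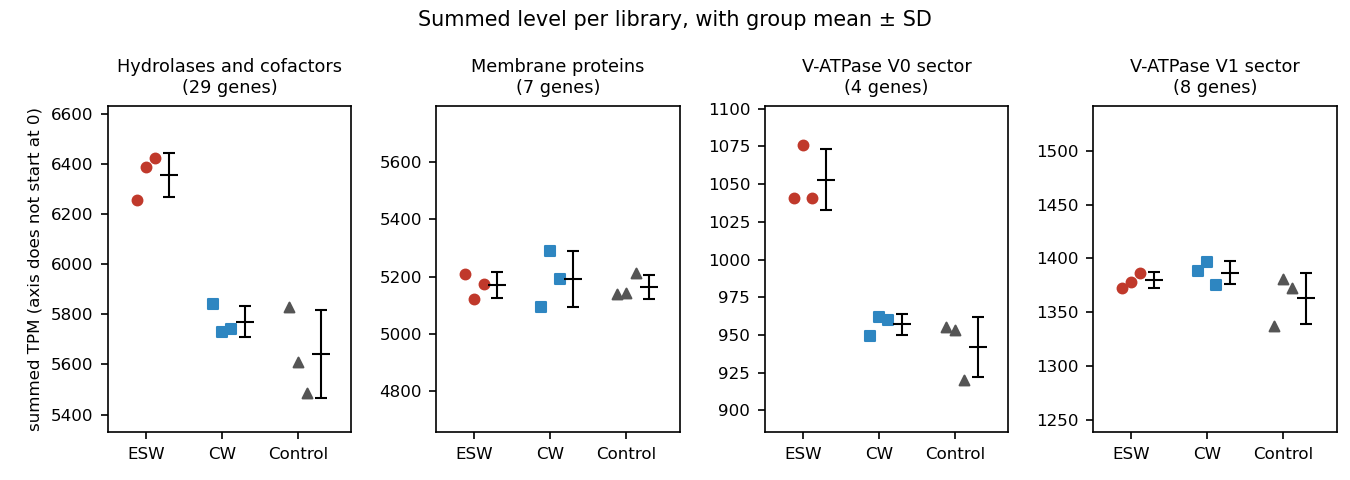
Each point is the summed TPM of 1 library over the genes of a role, beside the group mean ± SD (n = 3); the axes do not start at 0. For the 29 hydrolase and cofactor genes and the 4 V0 genes the ESW libraries lie above the other 6. For the 7 membrane proteins (5170 TPM in ESW, 5193 TPM in CW and 5165 TPM in Control libraries) and the 8 V1 genes the groups overlap. Cd63 and Laptm4a make up most of the membrane protein sum.

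Among the 7 membrane proteins, 2 rose in ESW cells against Control (Lamp1 and Npc1) and 1 against CW (Lamp1), and the summed level overlapped between the groups. Most of that sum (group means of 5165 to 5193 TPM) came from Cd63 (3035 TPM) and Laptm4a (1100 TPM), which were not called. Lamp1, a heavily glycosylated protein of the lysosomal membrane whose promoter window carries 2 CLEAR cores, had 701, 710 and 714 CPM in the ESW libraries, 630, 612 and 650 CPM in the CW libraries, and 663, 622 and 619 CPM in the Control libraries. The ESW libraries were the 3 highest. Lamp1 rose by 0.16 against Control (SE 0.04, adjusted p = 0.013) and by 0.17 against CW (SE 0.04, adjusted p = 0.0104). The call against Control was lost without Control replicate 2, Control replicate 3 or ESW replicate 3 (adjusted p = 0.0679, 0.0642 and 0.0701) and with the length offsets (adjusted p = 0.0613), and that against CW without ESW replicate 3 or CW replicate 2 (adjusted p = 0.0634 and 0.0669).

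Its relative Lamp2, which also serves chaperone-mediated autophagy and is mutated in Danon disease of the heart, had 333, 318 and 325 CPM in the ESW libraries, 316, 299 and 312 CPM in the CW libraries, and 338, 323 and 313 CPM in the Control libraries. The ESW libraries lay above CW and overlapped Control, with log2 fold changes of 0.00 against Control (SE 0.04, adjusted p = 0.993) and 0.07 against CW (SE 0.04, adjusted p = 0.26), neither past the test. Cd63, a tetraspanin of late endosomes and exosomes and the most abundant member, had 1084, 1022 and 1022 CPM in the ESW libraries, 1016, 1094 and 1092 CPM in the CW libraries, and 1023, 1074 and 1121 CPM in the Control libraries. Its groups overlapped, and its log2 fold change of -0.04 against Control did not pass the test (SE 0.04, adjusted p = 0.608).

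Npc1, which exports cholesterol from lysosomes, had a log2 fold change of 0.19 against Control (adjusted p = 0.0224) and of 0.12 against CW (adjusted p = 0.164). Mcoln1, the gene of the lysosomal calcium channel mucolipin 1, had 46.6, 44.4 and 44.8 CPM in the ESW libraries, 44.9, 41.6 and 46.1 CPM in the CW libraries, and 42.6, 42.9 and 42.7 CPM in the Control libraries. The ESW libraries lay above Control and overlapped CW, and the log2 fold change of 0.08 against Control did not pass the test (SE 0.05, adjusted p = 0.333). Scarb2, a receptor that serves the delivery of proteins to lysosomes, and Laptm4a had log2 fold changes of 0.01 and 0.04 against Control (adjusted p = 0.906 and 0.65).

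In the V-ATPase, the edgeR fit of all 9 libraries made calls among V0 and accessory genes and not among V1 genes. Of the 4 V0 genes, Atp6v0a1, Atp6v0c and Atp6v0d1 rose in ESW cells against Control and Atp6v0c and Atp6v0d1 against CW. Of the 8 V1 genes, 0 were called in that fit in either comparison. Other edgeR fits called Atp6v1a higher. Against CW these were the fits with no filter, with the 2 groups alone, and without Control replicate 1 or 3. Against Control it was the fit without Control replicate 1. At an unadjusted p below 0.05 there were 2 higher (Atp6v1a and Atp6v1b2) and 0 lower against Control, and the same 2 higher and 1 lower (Atp6v1c1) against CW. Over all 14706 tested genes, 3357 were below it against Control and 3514 against CW, in either direction. DESeq2 called 0 V1 genes against Control and 1, Atp6v1a, higher against CW, and limma-voom called 0 in both. Whether the V0 and V1 genes differ in their response was not tested. The summed level of the V0 genes was 1053 ± 20.1 TPM in ESW, 957 ± 6.88 TPM in CW and 942 ± 19.9 TPM in Control libraries, and that of the V1 genes was 1380 ± 7.17 TPM, 1387 ± 11.1 TPM and 1363 ± 23.4 TPM in the same groups.

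Atp6v0c, which encodes the proteolipid of the proton-carrying ring, had 317, 297 and 303 CPM in the ESW libraries, 255, 266 and 269 CPM in the CW libraries, and 259, 260 and 249 CPM in the Control libraries. The ESW libraries lay above the other 6, which overlapped. Atp6v0c rose by 0.26 against Control (SE 0.04, adjusted p = 0.000668) and by 0.22 against CW (SE 0.04, adjusted p = 0.00315). Atp6v0a1, the subunit that lines the path of the protons, had 97.6, 93.8 and 92.8 CPM in the ESW libraries, 87.5, 86.9 and 87.2 CPM in the CW libraries, and 78.4, 82.3 and 82.6 CPM in the Control libraries. Its 3 groups did not overlap, with CW between the others. The log2 fold change was 0.22 against Control (adjusted p = 0.00213), 0.12 against CW (adjusted p = 0.072) and 0.10 for CW against Control (adjusted p = 0.378).

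Atp6v0d1, which joins the ring to the central stalk and whose promoter window carries a CLEAR core, rose by 0.17 against Control (adjusted p = 0.00778) and by 0.15 against CW (adjusted p = 0.0176). Atp6v0b, the other proteolipid of the ring in the list, had 33.6, 27.7 and 26.9 CPM in the ESW libraries, 29.8, 31.7 and 33.3 CPM in the CW libraries, and 26.5, 30.4 and 32.5 CPM in the Control libraries. Its libraries were spread widely in each group, and its log2 fold change of -0.02 against Control did not pass the test (SE 0.08, adjusted p = 0.907). The RefSeq gene table names 5 pseudogenes after Atp6v0c, Atp6v1a, Atp6v1e1 and Atp6v1g1, for which no transcript was used here, so the counts of these 4 genes may include reads of near-identical copies and are uncertain.

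The V1 genes had log2 fold changes between -0.05 and 0.13 against Control and between -0.11 and 0.14 against CW, with SE between 0.04 and 0.05. Atp6v1g1, a peripheral stalk subunit and the most abundant V1 gene per length at 350 TPM, had 148, 146 and 144 CPM in the ESW libraries, 140, 143 and 151 CPM in the CW libraries, and 149, 145 and 144 CPM in the Control libraries. The groups overlapped (log2 fold change 0.00 against Control, SE 0.04, adjusted p = 0.977). Atp6v1a and Atp6v1b2, which form the ATP-hydrolysing head, had log2 fold changes of 0.11 and 0.13 against Control (adjusted p = 0.144 and 0.0911) and of 0.14 and 0.10 against CW (adjusted p = 0.0665 and 0.209). Atp6v1c1 was at -0.04 against Control and at -0.11 against CW (adjusted p = 0.676 and 0.192), and Atp6v1d, Atp6v1e1, Atp6v1f and Atp6v1h were between -0.05 and 0.03 in both comparisons.

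Of the accessory genes, Atp6ap2, which encodes the prorenin receptor, rose in ESW cells, with 71.8, 67.5 and 74.2 CPM in the ESW libraries, 63.4, 60.7 and 65.4 CPM in the CW libraries, and 62.5, 60.4 and 61.6 CPM in the Control libraries. All ESW libraries lay above the other 6. Atp6ap2 rose by 0.21 against Control (adjusted p = 0.00864) and by 0.17 against CW (adjusted p = 0.0285). Atp6ap1, a glycoprotein of the V0 sector, had 350, 322 and 337 CPM in the ESW libraries, 307, 311 and 316 CPM in the CW libraries, and 314, 304 and 312 CPM in the Control libraries. The ESW libraries were again the 3 highest, and the log2 fold changes of 0.12 and 0.11 did not pass the test with edgeR (adjusted p = 0.0653 and 0.0742); DESeq2 called Atp6ap1 higher in both comparisons.

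**Figure D4:**
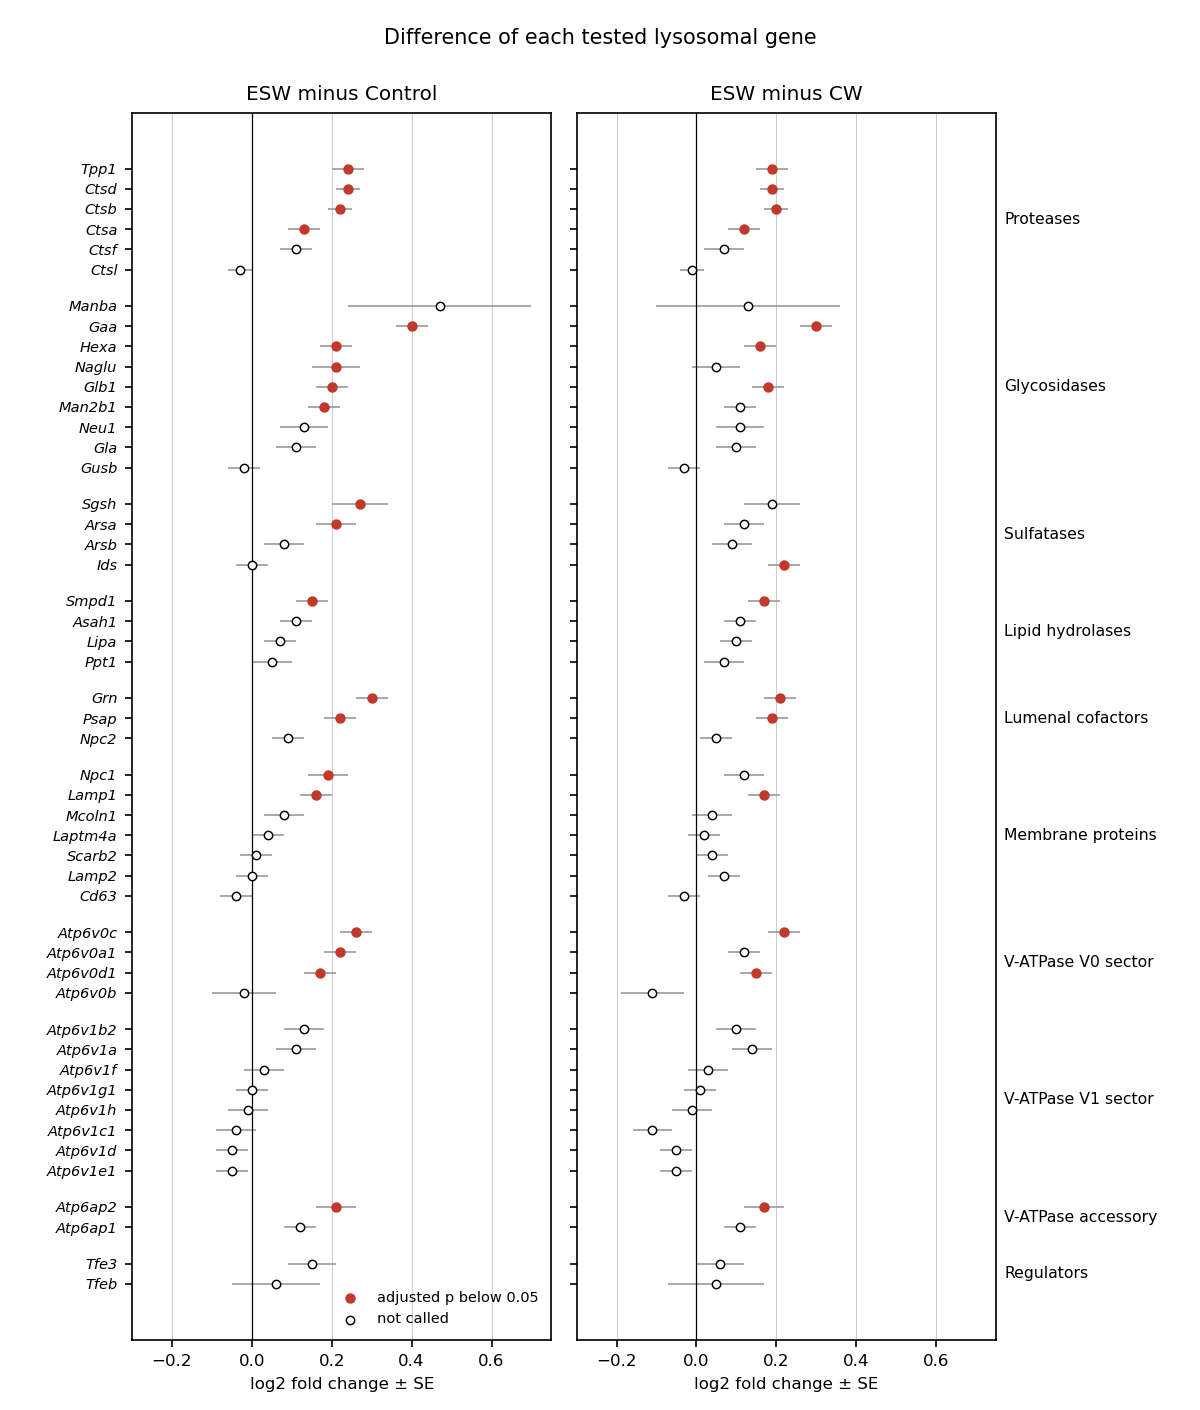
Points give the log2 fold change of each of the 49 tested genes for ESW minus Control (left) and ESW minus CW (right), bars give ± SE, and filled points passed an adjusted p of 0.05 in edgeR's quasi-likelihood test. Filled points lie to the right of 0 in both panels, at most 0.40 against Control for Gaa, and the V1 genes are all open.

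The transcripts of the 2 regulators were not called by edgeR, DESeq2 or limma-voom in either comparison, and at an unadjusted p below 0.05 only Tfe3 against Control was higher. Tfeb, a low-abundance member at 4.92 TPM, had 6.39, 6.19 and 8.0 CPM in the ESW libraries, 7.41, 6.34 and 6.17 CPM in the CW libraries, and 6.88, 6.1 and 6.69 CPM in the Control libraries. ESW replicate 3 was the highest of all 9, and the groups overlapped. The log2 fold change against Control was 0.06 (SE 0.11, adjusted p = 0.811), and without ESW replicate 3 it was -0.06. Tfe3 had 40.0, 40.3 and 38.7 CPM in the ESW libraries, 39.8, 37.4 and 36.8 CPM in the CW libraries, and 37.2, 37.5 and 33.1 CPM in the Control libraries. The ESW libraries lay above Control and overlapped CW, and the log2 fold changes were 0.15 against Control (SE 0.06, adjusted p = 0.112) and 0.06 against CW (SE 0.06, adjusted p = 0.533). TFEB and TFE3 are known to be controlled largely by phosphorylation and entry into the nucleus, which transcript counts do not measure.

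Few differences between CW and Control cells passed the test at these genes. By edgeR, 0 members rose in CW cells and 1, Ids, fell, where 0.0272% of all tested genes were called higher and 0.15% lower. The members' median log2 fold change was 0.02. At an unadjusted p below 0.05, Gaa, Grn, Naglu and Atp6v0a1 were higher in CW than in Control cells and Ids was lower. Over all tested genes, 1452 of 14706 were below it in either direction, a share near that of the members. DESeq2 called 0 members higher and 1 lower, and limma-voom called 0 in each direction. The call of Ids was lost in each fit that left out 1 library except the fit without Control replicate 3. When the 3 groups were tested at once, 21 of 49 members differed among them, beside 9.58% of all tested genes, and these included 0 of the 8 V1 genes and 0 of the 2 regulators.

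The calls differed in how far they held when the counts were handled in other ways. Against Control, 11 of the 20 were kept in all 17 other count-based fits, which changed the scaling, the filter, the tool or the length correction or left out a library: Ctsb, Ctsd, Tpp1, Gaa, Hexa, Glb1, Grn, Psap, Atp6v0a1, Atp6v0c and Atp6v0d1. Against CW, 7 of the 15 were kept in all 17: Ctsb, Ctsd, Gaa, Glb1, Grn, Psap and Atp6v0c. The 9 calls against Control lost in at least 1 of them were those of Ctsa, Man2b1, Naglu, Sgsh, Arsa, Smpd1, Lamp1, Npc1 and Atp6ap2. All 9 were lost without ESW replicate 3, and Ctsa, Sgsh and Npc1 also without Control replicate 2 or 3, and Ctsa without ESW replicate 2. With the length offsets, Sgsh and Npc1 were lost as well. Against CW, the call of Ctsa was lost without any 1 of the ESW or CW libraries or without Control replicate 2, that of Atp6v0d1 without ESW replicate 1 or 3 or any CW library, and that of Atp6ap2 without ESW replicate 1 or 3 or CW replicate 1 or 2. The length offsets also lost Ctsa and Atp6ap2 against CW. Ctsa was lost there too with DESeq2 size factors, a filter of 1 CPM in 3 libraries, the 2 groups alone and the replicate block.

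Of the members, 24 had 1 transcript at a mean of 1 TPM or more and 24 had 2 or more. Lamp2, which is known for splice forms with different tails, had 2 such transcripts: the one of 1747 bases made up 54.9 ± 1.45% of its TPM in ESW, 56.3 ± 1.13% in CW and 52.7 ± 1.26% in Control libraries (SD, n = 3 each), and the one of 3578 bases 44.9 ± 1.45%, 43.5 ± 1.14% and 47.1 ± 1.21% in the same groups. The ESW shares overlapped those of the other libraries, while the CW and Control libraries lay apart for both transcripts. Of the members' transcripts at a mean of 1 TPM or more, 3 had shares in the ESW libraries that lay apart from the other 6. This was not counted over the transcripts of all genes, so no background stands beside that count. In Man2b1 a transcript of 2832 bases made up 1.52 ± 0.694% in ESW, 3.19 ± 1.42% in CW and 3.32 ± 0.55% in Control libraries, and in Atp6v0c a transcript of 1661 bases made up 0.251 ± 0.0207%, 0.379 ± 0.0336% and 0.319 ± 0.0327%, with the main transcript of 1185 bases as its complement. Effective lengths, which enter TPM but not the counts, were shorter in ESW than in Control libraries for 14 of the 20 members called against Control, with a median log2 difference of -0.01. The median effective length over all tested genes, relative to the mean library on the log2 scale, was -0.0308, 0.00395 and -0.0142 in the ESW libraries, 0.0139, -0.0158 and -0.00668 in the CW libraries, and 0.0311, 0.00481 and 0.0171 in the Control libraries.

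Of 93 other genes of lysosomal pathways, listed by role with earlier results of these data known, 87 were tested. Of these, 15 rose and 1 fell in ESW cells against Control, where 4.76% of all tested genes were called higher and 3.28% lower. Against CW, 13 rose and 2 fell, beside 4.15% and 3.99% of all tested genes. Of the other hydrolases, 8 of 19 tested rose against Control and 6 against CW, and 0 fell with edgeR, DESeq2 or limma-voom (0 also at an unadjusted p below 0.05). The legumain protease gene Lgmn rose by 0.22 against Control (adjusted p = 0.00148) and by 0.19 against CW (adjusted p = 0.00591). Gm2a, whose product presents GM2 ganglioside to beta-hexosaminidase, rose by 0.19 (adjusted p = 0.00531) and 0.20 (adjusted p = 0.00558). Fuca1, a fucosidase gene, rose by 0.20 against Control (adjusted p = 0.0041) and was at 0.11 against CW (adjusted p = 0.0909). Over all 87 tested genes of these lists, the 15 higher against Control became 8 without Control replicate 2 and 6 without ESW replicate 3, and the 13 higher against CW became 6, 2, 8, 3 and 5 without ESW replicates 2 and 3 and CW replicates 1, 2 and 3, in that order. No share of all tested genes stands beside these leave-out counts.

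Among 20 other membrane proteins, 3 rose against Control (Spns1, Abca2 and Ostm1) and 2 rose (Ostm1 and Tpcn1) and 1 fell (Tpcn2) against CW. Of all tested genes, 4.76% were called higher against Control, and 4.15% higher and 3.99% lower against CW. The 1 of 20 called lower is near that last share. Spns1, a lysophospholipid transporter, rose by 0.25 against Control (adjusted p = 0.00451), and Ostm1, a partner of the chloride exchanger ClC-7, by 0.21 against Control (adjusted p = 0.0319) and 0.21 against CW (adjusted p = 0.0343). Tpcn2, the gene of an endolysosomal cation channel, fell by 0.32 against CW (adjusted p = 0.0402) and was at -0.16 against Control (adjusted p = 0.315), and DESeq2 did not call it. Its relative Tpcn1 was at 0.13 against CW (adjusted p = 0.0475).

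Genes that sort hydrolases to the lysosome were called higher in 2 of 14 cases against Control and in 4 of 14 against CW. Igf2r, the large mannose 6-phosphate receptor, rose by 0.16 in both comparisons (adjusted p = 0.0292 and 0.0261), and Gga2, an adaptor for that receptor, by 0.13 in both (adjusted p = 0.0449 and 0.0484). Nagpa, the enzyme that uncovers the mannose 6-phosphate tag, rose by 0.35 against CW (adjusted p = 0.0248) and was at 0.20 against Control (adjusted p = 0.201), and Sort1, the sortilin gene, rose by 0.15 against CW (adjusted p = 0.0405). Among 14 tested other V-ATPase genes, 1 was called higher and 1 lower in both comparisons. These counts are near the shares of all tested genes (4.76% and 4.15% higher, 3.28% and 3.99% lower). Rnasek, whose product associates with the pump, rose by 0.26 and 0.25 (adjusted p = 0.00628 and 0.00893). Dmxl1, which encodes a V-ATPase assembly factor, fell by 0.22 and 0.25 (adjusted p = 0.0377 and 0.0192). The call of Dmxl1 against Control was lost without Control replicate 1 or 3, ESW replicate 2 or 3, or CW replicate 2. Against CW, 0 of the 93 were called lower without ESW replicate 2, CW replicate 2 or CW replicate 3, and 1 without Control replicate 2, ESW replicate 1 or ESW replicate 3. Of 20 genes of nutrient sensing at the lysosome, Tsc2 was the 1 called higher against Control (log2 fold change 0.22, adjusted p = 0.00927). That share is near the 4.76% of all tested genes. Against CW, 0 were called by edgeR, DESeq2 or limma-voom. At an unadjusted p below 0.05, 2 were higher and 1 lower there, beside 3514 of all 14706 tested genes in either direction. Between CW and Control, 0 of the 87 were called by any of the 3 tools, with 6 higher and 3 lower at an unadjusted p below 0.05. That share is near the 1452 of all 14706 tested genes below it in either direction.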

How the data were processed

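Per the labels' protocols, an RNeasy Plus Mini kit gave the total RNA and a NovaSeq X Plus instrument the reads. The deposited estimated counts and TPM (a level per length with the same total in each library) come from Salmon 1.10.3, per the submitters' processing notes, which also name DESeq2. The deposited effective length of each transcript is another kind of value, in bases. Genome build, annotation release, strand and bias options are not given in the sources used here.

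All 114122 transcripts matched the RefSeq gene table (GRCr8, used for names). Estimated counts were summed per gene and rounded, and TPM was summed per gene. No library pair was identical. Genes kept by edgeR's filterByExpr were fitted with edgeR 4.0.16 (R 4.3.3, TMM scaling, quasi-likelihood test, 1 mean per group, all 9 libraries, 6 residual degrees of freedom), with Benjamini-Hochberg adjustment over 14706 genes and calls at 0.05; the common biological coefficient of variation was 4.84%. Because TMM assumes that most genes do not change, fold changes are relative to that bulk. Scripts were tested on simulated data.

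The members and the lists were chosen with earlier results of these data known, and their direction is no independent evidence. Named members are the 10 with the smallest p for ESW against Control, the 6 for ESW against CW and the 3 for CW against Control, the most abundant of each role, all called lower, and Tfeb, Tfe3, Mcoln1, Gaa, Grn, Lamp1 and Lamp2; others given with values were chosen after their values were seen. Of the other lists, at most 4 called genes per list and comparison were named, and some of these are not reported here. Alternatives used DESeq2 1.42.0, limma 3.58.1, offsets, other filters and scalings, a replicate block and each library left out.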

Additional observations from a re-analysis of the deposited data

How the results depend on the processing

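Every fold change of the 20 and 15 called members kept its sign in all alternatives run; the one reversal among the named values was Tfeb against Control, at -0.06 without ESW replicate 3 (adjusted p = 0.837), between -0.06 and 0.13 over the libraries left out, and not called in any of these fits. Limma on log2(TPM + 1) and log2(TPM + 0.1) called 7 and 10 members higher for ESW against Control (20 with edgeR), 0 and 0 against CW (15 with edgeR), and 0 and 1 in the 3-group test (21 with edgeR). The cause was not tested. With each library left out in turn these counts were 11 to 22, 8 to 16 and 12 to 21. Beyond the shares given above, the shares of all tested genes called in the alternative fits are not given here. The single member lower in CW than in Control, Ids, became 0 under DESeq2 size factors, limma-voom, both TPM fits, length offsets, a fit of the 2 groups alone and the replicate block, and 0 to 1 with a library left out. Of the other lysosomal genes, 15 were higher and 1 lower in ESW against Control: 3 and 0 on log2(TPM + 1), 4 and 0 on log2(TPM + 0.1), 8 and 0 with length offsets, 0 lower with the replicate block, and 6 to 19 and 0 to 1 with a library left out. Against CW, 13 were higher and 2 lower: 0 and 0 in both TPM fits, 1 lower with DESeq2 and with length offsets, 8 and 1 with the replicate block, and 2 to 16 and 0 to 2 with a library left out. Without a filter, 1 was higher and 1 lower in CW against Control, where 0 were called in each direction with it. No pairing of the samples by replicate number was seen, though with 3 libraries per group this check cannot exclude it. Correlations of same-numbered libraries' deviations ran from -0.118 to 0.0402 and 0 of 9 passed 0.1. Those of differently numbered libraries from different groups ran from -0.0409 to 0.0866. With the replicate block 20 members were higher against Control and 14 against CW. In fits with a group of 2 libraries the spread is pooled over the groups. Depth limits Manba and Tfeb, the least abundant tested members, and the untested Ctsh, Ctsk and Ctsz.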
